A study of Rattus norvegicus with 24 samples.

Results

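A set of 6 genes associated with macrophages in remodelling muscle was followed: Spp1, Gpnmb, Lgals3, Apoe, Cd68 and Ccl2. They were chosen by name, through the Ensembl gene IDs ENSRNOG00000043451, ENSRNOG00000008816, ENSRNOG00000010645, ENSRNOG00000018454, ENSRNOG00000037563 and ENSRNOG00000007159 in that order, and they are 6 of the 31998 genes counted. Bulk RNA had been sequenced from the plantaris, a calf muscle that extends the ankle, of 14-month-old female rats of generation 19 from a pair of selected lines. LRT rats descend from animals whose running capacity gained little from endurance training, and HRT rats from animals that gained much. There were 4 groups of 6 libraries: LRT overload, LRT control, HRT overload and HRT control. In both overload groups the gastrocnemius and soleus of one leg, which share the work of the plantaris, had been removed 14 days before the muscle was taken. The labels call the other groups control and carry the surgical protocol for them too, so control muscles may be from other animals or from the intact leg of operated ones. They do not state that libraries came from separate animals either. The p-values set differences between groups against the spread between these libraries, and they take the libraries as independent, which shared animals would break.

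Macrophages enter skeletal muscle when it is injured or loaded beyond its habit. They take up cell debris, and they secrete factors that act on satellite cells and fibroblasts while the tissue rebuilds. Ccl2 encodes the chemokine that draws monocytes out of the blood through the receptor Ccr2. Cd68 encodes a glycoprotein of late endosomes and lysosomes and is widely used as a macrophage marker. Lgals3 (galectin-3), Gpnmb and Spp1 (osteopontin) are raised in phagocytic macrophages of injured, dystrophic or fibrotic tissue in mice. Apoe encodes the lipid carrier apolipoprotein E, which macrophages secrete when they take up cholesterol. None of the 6 transcripts belongs to macrophages alone, since fibroblasts, myoblasts, endothelial cells or adipocytes make one or more of them. In bulk tissue, more cells of a type and more RNA per cell cannot be told apart.

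Values are in CPM, that is, estimated read counts scaled to the size of the library, which was corrected by the trimmed mean of M values (TMM) normalization of edgeR. Library totals ran from 26997674 to 34254957 estimated counts. All 6 genes passed the filter on low counts, as did 16661 genes in all. The deposited table does not pair IDs with names and no table used here does, so markers of muscle, of macrophages beyond these 6 genes and of other cell types were not used here. RNA integrity numbers (RIN) were higher in overloaded muscle, at 8.67 ± 0.258 (SD, n = 6) in LRT overload against 8.28 ± 0.147 in LRT control, and 8.97 ± 0.327 in HRT overload against 8.27 ± 0.216 in HRT control. With RIN as a covariate the 6 genes still rose after overload in both lines. In HRT the highest control RIN and the lowest overload RIN were both 8.6, so this fit cannot separate RIN from overload there. In LRT only overload replicate 3, at 8.2, lay within the control range of 8.1 to 8.5, so the fit separates them little there too.

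The stretch before the transcription start of the genes was read from RefSeq promoters of the GRCr8 assembly, matched by symbol. The submitters' processing notes name another build, Rnor_6.0, for the counts, so the windows serve as sequence only. Promoters were found for Spp1, Gpnmb, Apoe and Cd68. The 250 bases before the start are shown for Gpnmb and Spp1, which varied together among overloaded muscles, and for the marker Cd68, with motif matches in capitals.

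Gpnmb (GRCr8, chr4:79340878-79341127, plus strand): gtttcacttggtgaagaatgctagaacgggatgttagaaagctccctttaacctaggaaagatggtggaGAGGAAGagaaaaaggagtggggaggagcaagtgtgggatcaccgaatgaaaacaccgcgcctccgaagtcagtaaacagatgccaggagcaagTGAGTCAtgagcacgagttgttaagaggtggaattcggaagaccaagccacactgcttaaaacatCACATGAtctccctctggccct
Spp1 (GRCr8, chr14:5619805-5620054, minus strand): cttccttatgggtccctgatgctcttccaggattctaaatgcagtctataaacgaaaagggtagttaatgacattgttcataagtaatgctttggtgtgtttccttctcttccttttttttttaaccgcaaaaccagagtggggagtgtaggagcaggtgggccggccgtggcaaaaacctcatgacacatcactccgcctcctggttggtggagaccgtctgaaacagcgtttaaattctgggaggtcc
Cd68 (GRCr8, chr10:54882442-54882691, minus strand): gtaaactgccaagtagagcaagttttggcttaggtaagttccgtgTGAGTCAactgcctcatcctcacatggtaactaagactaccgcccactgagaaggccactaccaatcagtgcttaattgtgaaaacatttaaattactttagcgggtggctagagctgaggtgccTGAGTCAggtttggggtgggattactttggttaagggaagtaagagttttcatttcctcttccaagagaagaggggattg

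The motifs were the AP-1 site TGAGTCA with its reverse complement TGACTCA, the M-box TCATGTG with its reverse complement CACATGA, bound by Mitf and its relatives, and the purine-rich core GAGGAAG with its reverse complement CTTCCTC, found in sites of the myeloid factor PU.1. No match overlapped another. The motifs were chosen with the sequences in view. The Gpnmb stretch held 1 match of each: GAGGAAG began 181 bases, TGAGTCA 87 bases and CACATGA 22 bases before the start. The Cd68 stretch held TGAGTCA at 205 and at 80 bases before the start. These letters were not in the Spp1 window. Apoe has 3 starts in the table, and the window of the most upstream one held TCATGTG 41 bases before the start. Of 33469 windows of 250 bases, 4.05% held the AP-1 letters, 3.07% the M-box letters and 10.2% the PU.1 letters on either strand. A match describes the sequence and was not tested for binding or for a part in the response.

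The first comparison asked how overload changed these genes in each line. All 6 rose after overload in both lines (edgeR's quasi-likelihood test, Benjamini-Hochberg adjusted p under 0.05 over all tested genes). In LRT 28.9% of all tested genes rose by the same test, and in HRT 31.9%. Genes that rose made up 4808 of 9524 called genes in LRT and 5319 of 10523 in HRT with TMM. With library totals alone they made up 6765 of 8658 in LRT and 7942 of 10180 in HRT, the median of all genes moved to 0.22 and 0.27, and all 6 genes still rose. The median log2 fold change of the 6 genes was 2.63 in LRT and 3.11 in HRT, against −0.02 over all tested genes in each line. This is a description, as the genes and comparisons were chosen with earlier results of these data known. Gpnmb and Apoe had the highest fold changes in LRT, and Gpnmb and Spp1 in HRT. Together the 6 genes held 0.0514% ± 0.0133 (SD, n = 6) of the estimated counts in LRT overload against 0.00554% ± 0.000832 in LRT control. In HRT they held 0.0775% ± 0.0271 in overload against 0.00729% ± 0.00116 in control. These shares are of library totals without TMM, so they are on another scale than the fold changes. Between 51.4% and 84.4% of the counts of the 6 genes in a library came from Apoe.

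**Figure D1:**
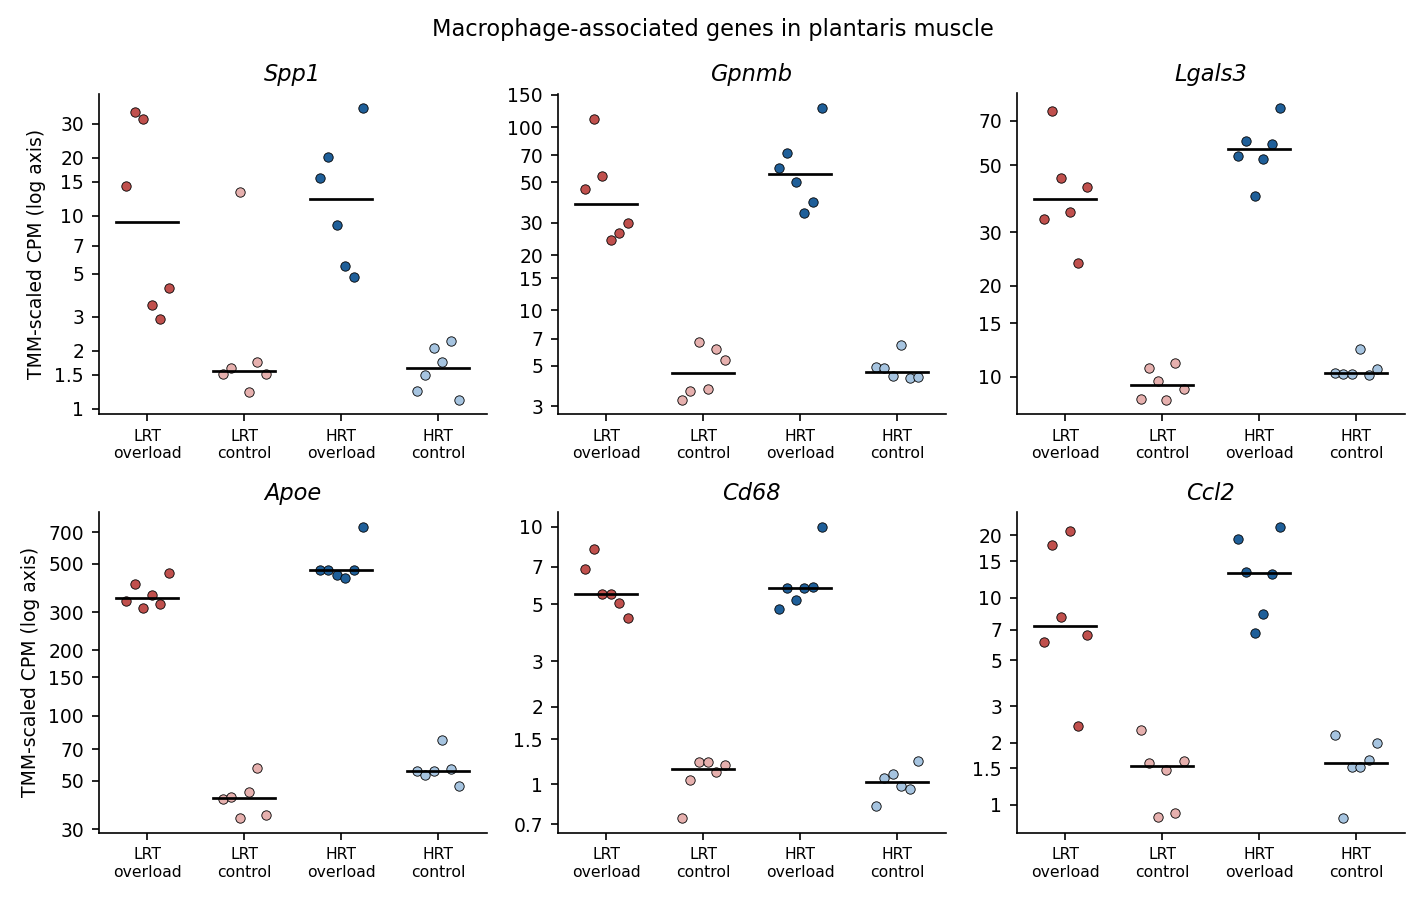
Each point is 1 library and the line is the group median, in TMM-scaled CPM on a log axis, for 6 libraries in each group. The overloaded libraries lie above all control libraries of their line in every panel except Spp1, where 1 LRT control library at 13.3 CPM lies above 3 LRT overload libraries.

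Ccl2, the chemokine of monocyte entry, was at 2.41 CPM in the lowest, 7.32 in the median and 21.0 in the highest LRT overload library, against 0.872, 1.53 and 2.29 in LRT control. HRT overload libraries held 6.76, 13.1 and 22.1 CPM, against 0.863, 1.59 and 2.18 in HRT control. Overloaded and control libraries did not overlap in either line, although the lowest LRT overload library, replicate 5, lay only just above the highest control library. The log2 fold change was 2.83 ± 0.433 (SE) in LRT (edgeR adjusted p = 1.13e-05) and 3.08 ± 0.429 in HRT (edgeR adjusted p = 2.24e-06).

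Cd68, the lysosomal macrophage marker, was at 4.44, 5.48 and 8.21 CPM in the lowest, median and highest LRT overload library, against 0.740, 1.15 and 1.22 in LRT control. HRT overload libraries held 4.80, 5.79 and 10.001 CPM, against 0.827, 1.02 and 1.23 in HRT control. The control values rest on 20.02 to 35.01 estimated counts per library. The groups were far apart in both lines, and the HRT overload libraries other than replicate 6 stayed within a narrow range. Cd68 rose 5.43-fold in LRT (log2 fold change 2.44 ± 0.182 SE, edgeR adjusted p = 5.19e-10) and 6.05-fold in HRT (log2 fold change 2.60 ± 0.183 SE, with an edgeR adjusted p of 7.68e-11).

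Lgals3 encodes galectin-3, a lectin that binds beta-galactosides on glycoproteins and was first described as the macrophage antigen Mac-2 in mice. It was at 23.8, 38.7 and 75.6 CPM in the lowest, median and highest LRT overload library, against 8.39, 9.40 and 11.1 in LRT control. In HRT overload it was at 39.6, 56.3 and 77.1 CPM, against 10.1, 10.3 and 12.3 in HRT control. The control libraries lay close together and below every overloaded library. Lgals3 had the lowest fold change of the 6 genes in HRT and, next to Spp1, in LRT. Its log2 fold change was 2.15 ± 0.195 (SE) in LRT (edgeR adjusted p = 9.85e-09) and 2.42 ± 0.196 in HRT (edgeR adjusted p = 7.94e-10).

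Apoe was at 312, 347 and 455 CPM in the lowest, median and highest LRT overload library, against 33.7, 41.7 and 57.4 in LRT control. The HRT overload values were 433, 469 and 743 CPM, against 47.3, 55.5 and 77.4 in HRT control. Overloaded libraries held several times the level of any control library, and 5 of the 6 HRT overload libraries lay between 433 and 470 CPM. Apoe rose 8.63-fold in LRT (log2 fold change 3.11 ± 0.156 SE, edgeR adjusted p = 1.06e-12) and 8.76-fold in HRT (log2 fold change 3.13 ± 0.155 SE, with an edgeR adjusted p of 5.74e-13). These are the smallest standard errors among the 6 genes in both lines.

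Gpnmb encodes a transmembrane glycoprotein of lysosomes and the cell surface, and is a target of the transcription factor Mitf in osteoclasts and pigment cells of mice. It was at 24.1, 37.9 and 111 CPM in the lowest, median and highest LRT overload library, against 3.26, 4.56 and 6.70 in LRT control. In HRT overload it was at 33.99, 55.1 and 127 CPM, against 4.30, 4.59 and 6.47 in HRT control. Overloaded and control libraries were well separated in both lines, with 1 library of each overload group well above the rest. Gpnmb had the highest fold change of the 6 genes in both lines. It rose 10.1-fold in LRT (log2 fold change 3.33 ± 0.380 SE, edgeR adjusted p = 3.27e-07), where its fold change ranked 98 among the 16661 tested genes. In HRT it rose 13.1-fold (log2 fold change 3.71 ± 0.384 SE, with an edgeR adjusted p of 4.81e-08), where it ranked 105.

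Spp1 encodes osteopontin, a secreted matrix protein and cytokine that binds integrins and Cd44. It was at 2.91, 9.28 and 34.3 CPM in the lowest, median and highest LRT overload library, against 1.22, 1.57 and 13.3 in LRT control. In HRT overload it was at 4.79, 12.3 and 36.1 CPM, against 1.11, 1.62 and 2.24 in HRT control. LRT overload libraries fell into 3 high ones, at 14.3, 34.3 and 31.6 CPM (replicates 1, 2 and 3), and 3 low ones, at 3.46, 2.91 and 4.24 CPM (replicates 4, 5 and 6). LRT control replicate 3, at 13.3 CPM, lay above the 3 low overloaded libraries, while the other LRT control libraries were at or below 1.75 CPM. The log2 fold change was 2.11 ± 0.718 (SE) in LRT (edgeR adjusted p = 0.016) and 3.19 ± 0.772 in HRT (edgeR adjusted p = 0.00116). The call in LRT rested on single libraries. Without LRT control replicate 3 the gene was 3.30 higher on the log2 scale (edgeR adjusted p = 0.000499). Without LRT overload replicate 2 it was 1.69 (edgeR adjusted p = 0.0562), and in a fit of the LRT groups alone it was 2.17 (edgeR adjusted p = 0.0551).

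Overloaded and control libraries did not overlap for 5 of 6 genes in LRT and for 6 of 6 in HRT. Over all tested genes, 17.3% in LRT and 21.4% in HRT had each overloaded library above each control library.

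**Figure D2:**
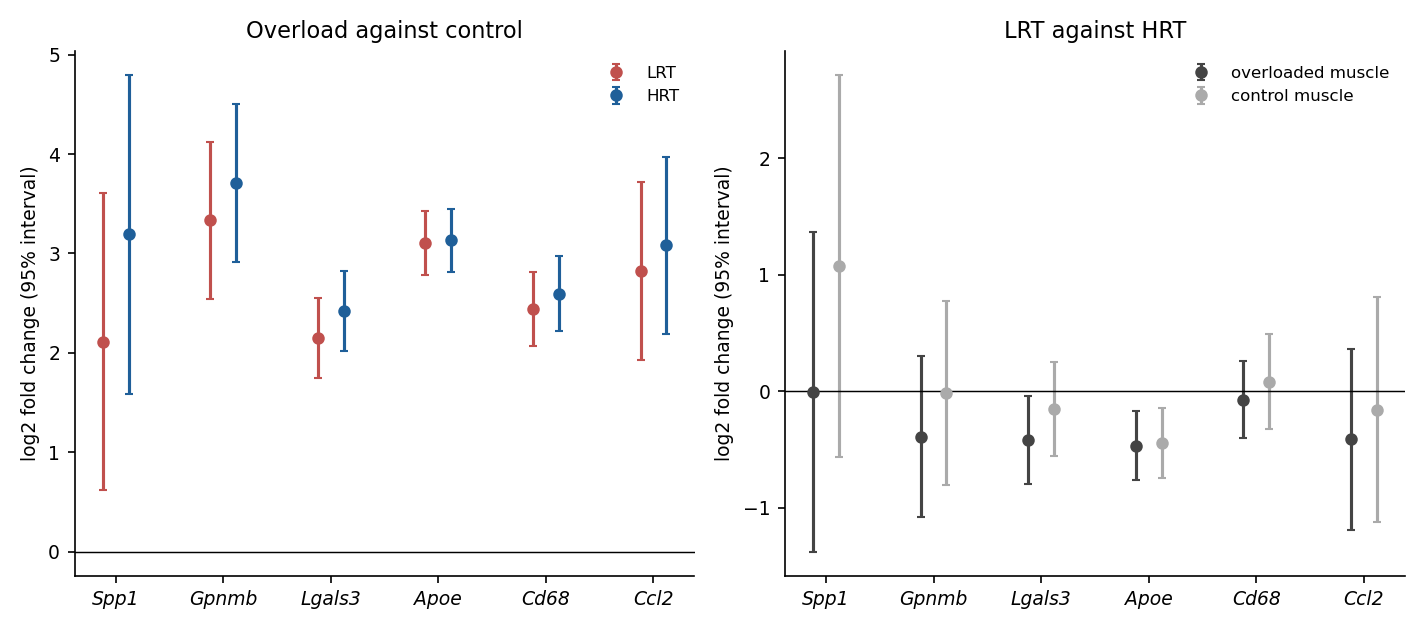
Points are log2 fold changes from edgeR and bars are approximate 95% intervals, on the left for overload against control in LRT and HRT, on the right for LRT against HRT in overloaded and control muscle. All intervals on the left lie above 0 and those of the 2 lines overlap for every gene, while on the right the intervals of Apoe in both states and of Lgals3 in overloaded muscle lie below 0 before adjustment for multiple tests.

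The second comparison asked whether the lines differed in the response. For the difference between responses, LRT minus HRT, none of the 6 genes passed the test (edgeR adjusted p from 0.665 to 0.974), and 0 of the 6 had an unadjusted p under 0.05. By this test 8 genes passed among all tested (0.048%), and 2265 had an unadjusted p under 0.05. DESeq2's Wald test and limma-voom also called 0 of the 6. All 6 point estimates were negative, but they do not weigh equally. Apoe had a difference of −0.02 on the log2 scale with an approximate 95% interval of −0.44 to 0.40. For Cd68 the difference was −0.16 (interval −0.68 to 0.37) and for Lgals3 −0.27 (interval −0.82 to 0.28). The Lgals3 difference was −0.51 when LRT overload replicate 2 was left out and −0.14 when HRT overload replicate 6 was. The intervals of Gpnmb (−1.43 to 0.68), Ccl2 (−1.49 to 0.99) and Spp1 (−3.22 to 1.06) were wider and included large differences in either direction. On the negative side those of Cd68 and Lgals3 also included differences at least as large as the upper limit for Gpnmb. The estimate for Spp1 was −1.08, and 0.11 without LRT control replicate 3.

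The lines were then compared within each state. In overloaded muscle, Apoe averaged 365 ± 53.9 CPM in LRT and 505 ± 118 CPM in HRT (SD, n = 6 each). The highest LRT library, at 455 CPM, lay above 2 HRT libraries, and the other 5 LRT libraries lay below all of HRT. The log2 fold change of LRT over HRT was −0.47 ± 0.143 (SE; unadjusted p = 0.00328, edgeR adjusted p = 0.0677), which did not pass. In control muscle Apoe averaged 42.3 ± 8.55 CPM in LRT and 57.6 ± 10.3 CPM in HRT (log2 fold change −0.44 ± 0.145, unadjusted p = 0.00524, edgeR adjusted p = 0.113), which did not pass either. Over the alternatives the adjusted p ran from 0.0232 to 0.197 in overloaded muscle and from 0.043 to 0.281 in control muscle, so the calls turned on single libraries, on the scaling and on the tool. RIN was also lower in LRT overload than in HRT overload. With RIN as a covariate Apoe in overloaded muscle was at −0.39 (edgeR adjusted p = 0.128), and with the replicate number added at −0.39 (edgeR adjusted p = 0.196). The 2 states use different libraries but may share animals.

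Lgals3 averaged 42.5 ± 17.9 CPM in LRT and 57.0 ± 12.3 CPM in HRT after overload (log2 fold change −0.42 ± 0.183, unadjusted p = 0.0307, edgeR adjusted p = 0.177). LRT overload replicate 2, at 75.6 CPM, stood apart from the other LRT libraries, which reached 45.4 CPM at most. Without it the log2 fold change stood at −0.67 (edgeR adjusted p = 0.00946). Of the other genes in overloaded muscle, Gpnmb and Ccl2 had log2 fold changes of −0.39 and −0.41 (edgeR adjusted p = 0.522 and 0.549). Gpnmb was at −0.82 without LRT overload replicate 2 (edgeR adjusted p = 0.0729) and at −0.06 without HRT overload replicate 6. Ccl2 was at −0.74 with LRT overload replicate 4 left out and at −0.21 with LRT overload replicate 5 left out. Cd68 had a log2 fold change of −0.07 with an approximate 95% interval of −0.40 to 0.26 (edgeR adjusted p = 0.831). For Spp1 it was −0.00 with an interval of −1.38 to 1.37 (edgeR adjusted p = 0.999). In control muscle the genes other than Apoe had log2 fold changes of LRT over HRT from −0.16 for Ccl2 to 1.08 for Spp1, which was −0.12 without LRT control replicate 3 (edgeR adjusted p from 0.533 to 0.989). In all, 0 of 6 genes passed in overloaded muscle, where 3.09% of tested genes did, and 0 of 6 in control muscle, where 1.97% did. Of the called genes, 266 of 514 were higher in LRT in overloaded muscle (225 of 2153 with library totals alone) and 203 of 328 in control muscle (76 of 262 with library totals alone). Unadjusted p under 0.05 were found for 2 of the 6 in overloaded muscle and for 1 in control muscle. Among all 16661 tested genes, 3713 had such a p in overloaded muscle and 2772 in control muscle. DESeq2's Wald test called Apoe in overloaded muscle (adjusted p = 0.0303) and limma-voom called none of the 6 there.

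Overloaded muscles of one line varied in these genes to very different degrees. The SD of log2 CPM over the 6 LRT overload libraries was 1.61 for Spp1, 1.13 for Ccl2, 0.83 for Gpnmb, 0.56 for Lgals3, 0.32 for Cd68 and 0.20 for Apoe. In HRT overload it was 1.13 for Spp1, 0.66 for Ccl2, 0.68 for Gpnmb, 0.31 for Lgals3, 0.37 for Cd68 and 0.29 for Apoe. The median over all tested genes was 0.21 in LRT overload and 0.25 in HRT overload. Spp1 was thus more variable than about 99.4% of tested genes in LRT overload and 98.4% in HRT overload, while Apoe was near the middle, at 47.4% and 58.8%.

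**Figure D3:**
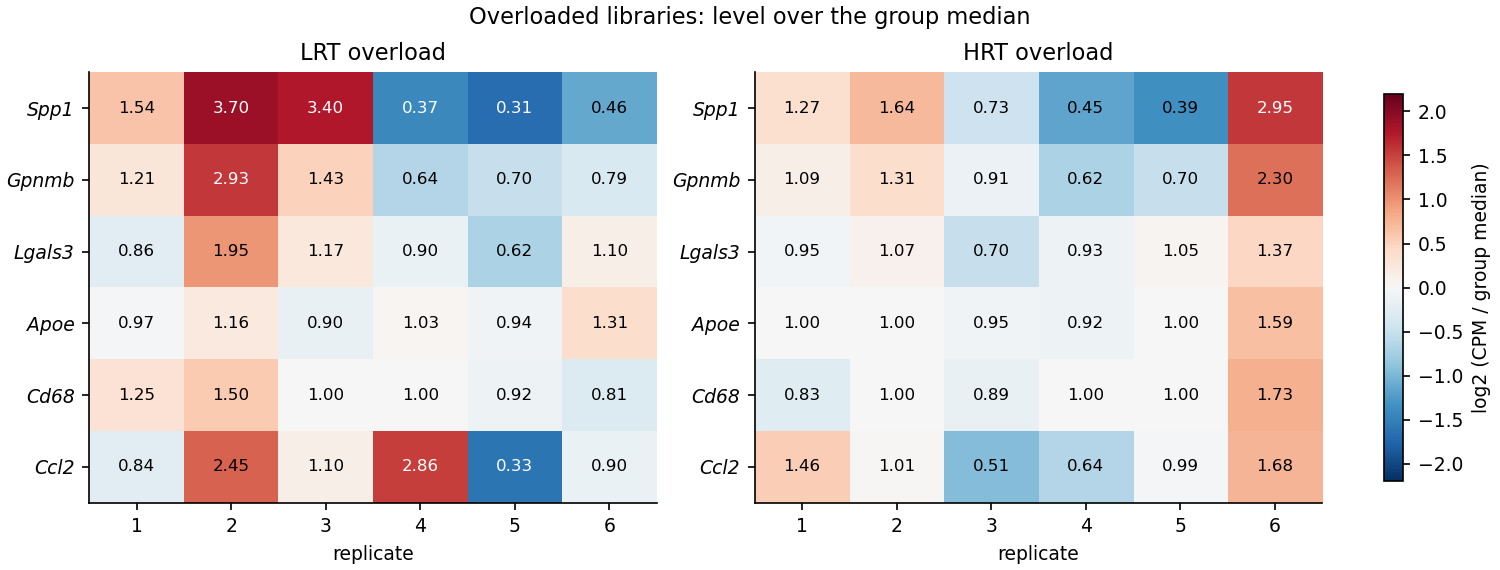
Each cell gives the CPM of 1 gene in 1 overloaded library divided by the median of its group, and its colour the log2 of that ratio. HRT overload replicate 6 was the highest of its group for all 6 genes and LRT overload replicate 2 for 4 of them, while Spp1 and Gpnmb change together across libraries and Apoe varies least.

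The highest values of different genes came from the same libraries. HRT overload replicate 6 was the highest of its group for all 6 genes, from 1.37 times the group median for Lgals3 to 2.95 times for Spp1. LRT overload replicate 2 was the highest for Spp1, Gpnmb, Lgals3 and Cd68 and the next to highest for Apoe and Ccl2. The RIN of these libraries was 9.2 and 8.6, within the range of their groups (8.6 to 9.4 in HRT overload and 8.2 to 8.9 in LRT overload). They did differ in scaling, since TMM counted both as larger than their totals of 29188698 and 29444027. It did so more for LRT overload replicate 2 than for the rest of its group. In HRT overload it did so more for replicates 1, 2 and 6 than for replicates 3, 4 and 5. Whether this difference across the whole library bears on the 6 genes was not tested. With both libraries left out, all 6 genes still rose in both lines, and Spp1 in LRT had a log2 fold change of 1.74 (edgeR adjusted p = 0.0441).

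Correlations between the genes were computed within each overload group, since overloaded and control libraries form separate clusters. Of 30 relations (15 pairs in 2 groups), that of Spp1 and Gpnmb passed in both groups on the log2 CPM scale. The 2 groups had equal p, and with adjustment over all 30 relations each passed only together with the other. The smallest exact permutation p that 6 libraries allow is 0.00139. In LRT overload Pearson's r was 0.92 (exact permutation p = 0.00278, adjusted p = 0.0417, n = 6) and Spearman's rho 0.94 (exact permutation p = 0.0167, adjusted p = 0.25). In HRT overload r was 0.97 (exact permutation p = 0.00278, adjusted p = 0.0417) and rho 0.94 (exact permutation p = 0.0167, adjusted p = 0.25). Without the 2 libraries farthest from the median of Spp1, r was 0.97 in LRT and 0.98 in HRT. The Gpnmb stretch printed above held a match of each motif and the Spp1 stretch none. Those motifs were chosen with the sequences in view, and no link between them and this correlation was tested. In LRT overload the 3 high and 3 low Spp1 libraries lie apart, and 3 libraries are too few for a coefficient within either. The rank correlations did not pass after adjustment. The points of a pair share the library and its scaling.

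The other pairs did not pass. In HRT overload all 15 coefficients were positive, with a median of 0.71, and 13 of 15 remained positive without the 2 farthest libraries. Farthest means from the median of the gene listed first in the pair. With 1 library left out, r with Cd68 fell as low as −0.418 for Spp1, −0.383 for Gpnmb, −0.286 for Ccl2 and −0.186 for Apoe, while the other pairs stayed positive. The share of positive coefficients among pairs of other genes was not computed. In LRT overload 13 of 15 were positive, with a median of 0.47, and 11 of 15 were positive without the 2 farthest libraries. Spp1 and Cd68 had r = 0.71 in LRT overload (exact permutation p = 0.125, adjusted p = 0.25; rho = 0.77, exact permutation p = 0.103, adjusted p = 0.314; r = 0.80 without the 2 farthest libraries). In HRT overload they had r = 0.58 (exact permutation p = 0.25, adjusted p = 0.357; rho = 0.03, exact permutation p = 1, adjusted p = 1; r = −0.24 without the 2 farthest libraries). Spp1 therefore varied among overloaded HRT muscles with nearly the same level of Cd68, apart from replicate 6: it ran from 4.79 to 20.1 CPM over the other 5 libraries while Cd68 ran from 4.80 to 5.81 CPM.

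**Figure D4:**
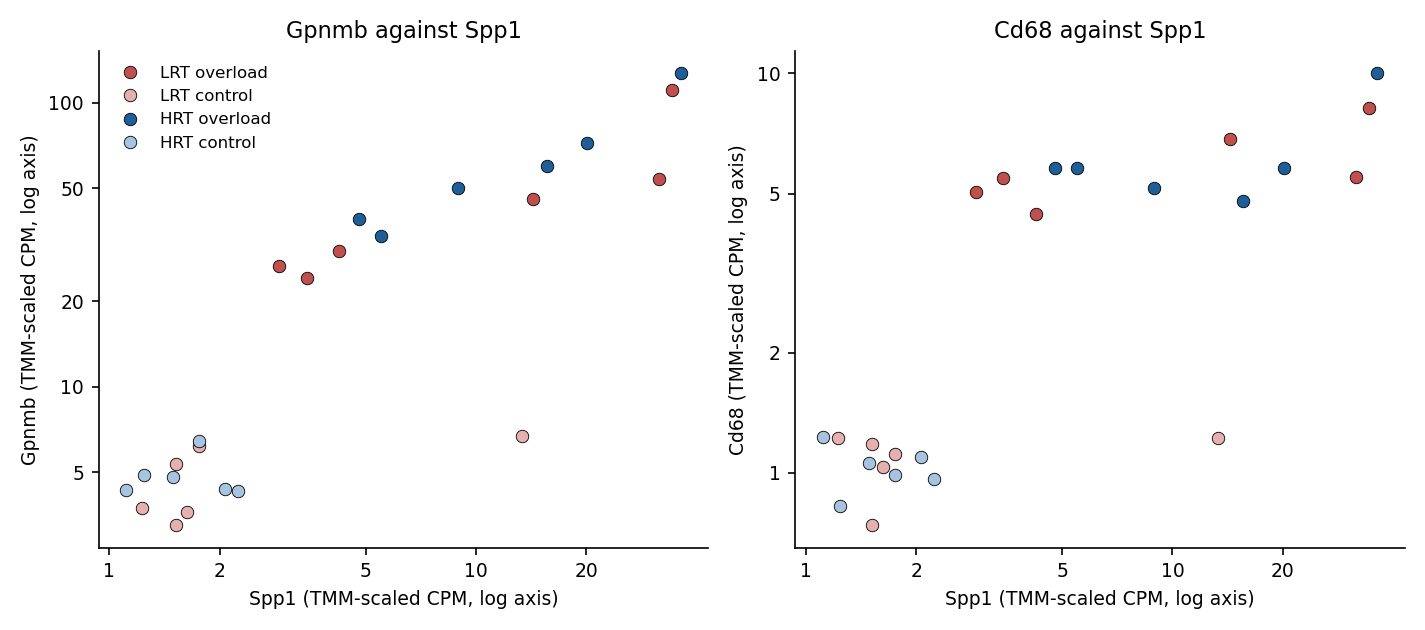
Each point is 1 library, with Spp1 on the x axis and Gpnmb (left) or Cd68 (right) on the y axis, in TMM-scaled CPM on log axes. Gpnmb rises with Spp1 among the overloaded libraries of both lines, Cd68 lies between 4.44 and 6.86 CPM in 10 of the 12 overloaded libraries, and LRT control replicate 3 combines 13.3 CPM of Spp1 with control levels of Gpnmb and Cd68.

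LRT control replicate 3 was high in Spp1 but not in the other 5 genes relative to overload. It had 6.70 CPM of Gpnmb, the highest LRT control value yet well under the lowest LRT overload library. Its Cd68 was 1.22 CPM, its Lgals3 9.70 CPM, its Apoe 33.7 CPM and its Ccl2 0.872 CPM, all inside or at the edge of the control range.

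To set the genes against the lysosomal marker, counts were divided by those of Cd68 in the same library. These ratios depend on transcript length and compare groups, not genes. Lgals3 had a median of 7.34 counts per Cd68 count in LRT overload against 8.95 in LRT control, and 9.60 in HRT overload against 10.1 in HRT control. Its ratios overlapped widely between overload and control. Gpnmb had medians of 6.72 in LRT overload against 4.47 in LRT control, and 11.1 in HRT overload against 4.52 in HRT control. Apoe had medians of 60.8 in LRT overload against 38.5 in LRT control, and 80.9 in HRT overload against 54.6 in HRT control. For both genes the ranges of overload and control overlapped in each line. For Ccl2 the medians were 1.47 in LRT overload against 1.29 in LRT control, and 2.22 in HRT overload against 1.58 in HRT control. For Spp1 they were 1.52 in LRT overload against 1.57 in LRT control, and 2.49 in HRT overload against 1.64 in HRT control. The Spp1 ratios spread from 0.575 to 5.75 within LRT overload against 0.999 to 10.9 within LRT control, where replicate 3 was the highest, and from 0.825 to 3.61 within HRT overload against 0.906 to 2.32 within HRT control. No test was made of these ratios.

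**Figure D5:**
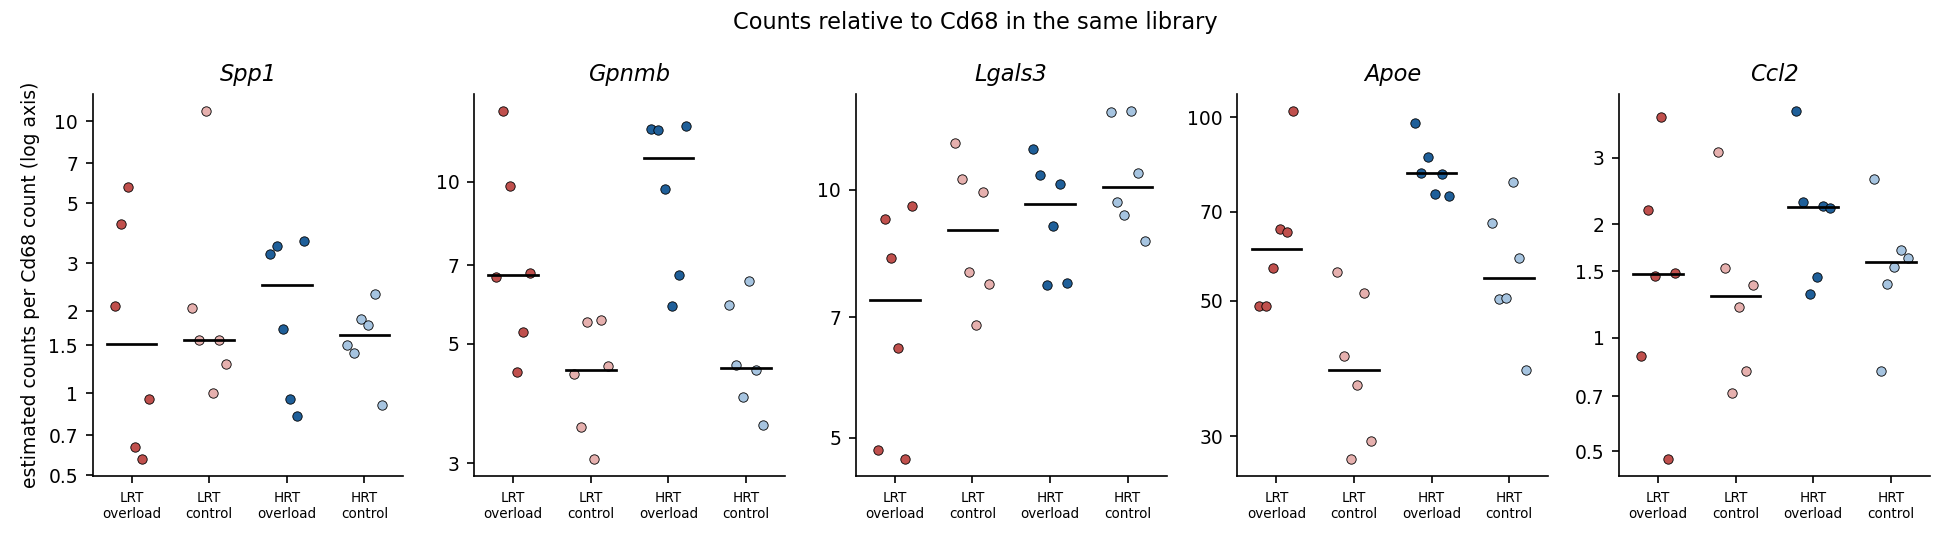
Points are estimated counts of each gene divided by those of Cd68 in the same library, on a log axis, with the group median as a line, for 6 libraries in each group. The ratios of Lgals3 and Ccl2 overlap widely between overload and control, those of Gpnmb and Apoe lie mostly higher after overload, and those of Spp1 spread widely within LRT overload, LRT control and HRT overload.

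Among 12223 other genes whose mean log2 CPM was 1 or more, those whose pattern was most like that of the 6 genes were sought over the 12 overloaded libraries, after subtracting the mean of each line. ENSRNOG00000016346 had a mean Pearson's r of 0.77 with the 6 genes (0.66 to 0.86) and ENSRNOG00000003104 of 0.77 (0.56 to 0.93). The mean r of a member with the other 5 ran from 0.46 for Apoe to 0.68 for Gpnmb on the same scale, and the median over all candidate genes was −0.05. These coefficients are a description. Both outside genes were picked as the highest of the 12223 by this mean r. Their values are high through that choice and do not place them closer to the set than its members. ENSRNOG00000016346 was at 12.2 ± 2.04 CPM in LRT overload against 5.94 ± 0.501 in LRT control, and at 13.1 ± 2.08 CPM in HRT overload against 6.71 ± 1.04 in HRT control (SD, n = 6 each). ENSRNOG00000003104 was at 4.73 ± 2.07 CPM in LRT overload against 1.07 ± 0.195 in LRT control, and at 5.03 ± 1.53 CPM in HRT overload against 1.24 ± 0.375 in HRT control. Both rose in both lines (log2 fold changes 1.04 and 2.14 in LRT, 0.97 and 2.01 in HRT, edgeR adjusted p from 1.46e-07 to 3.04e-07). The files give these IDs no names.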

How the data were processed

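Illumina TruSeq libraries were prepared from total RNA of homogenised plantaris, per the labels' protocols. The deposited table holds expected (estimated) counts per Ensembl gene ID, not normalized, and the tool and builds named in the submitters' processing notes are Salmon 0.9.1, Rnor_6.0 and rn6. Strand settings, annotation and the handling of shared reads were not given in the sources used here. Reads of overlapping genes cannot be told apart. Groups came from the sample titles.

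The expected counts that the authors deposited were rounded. edgeR 4.0.16 in R 4.3.3 kept 16661 of 31998 genes (filterByExpr, minimum count 10, minimum total 15), scaled by TMM and fitted all 24 libraries in 1 robust quasi-likelihood model of the 4 groups, with Benjamini-Hochberg adjustment over all tested genes and a threshold of 0.05. This model gives all groups 1 dispersion per gene, although the median SD of log2 CPM over all tested genes was 0.21 in LRT overload against 0.20 in LRT control, and 0.25 in HRT overload against 0.17 in HRT control. The standard error is the size of the log2 fold change divided by the root of F, and intervals use the t distribution. Log2 CPM used a prior count of 2. Library totals ran from 26997674 to 34254957 and enter through the scaling. Relative to their totals, TMM counted overloaded libraries as larger than control libraries. Over 60 library pairs within groups chi-square per degree of freedom was 13.93 or more, so none was a duplicate. The script was tested on simulated counts.

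As alternatives, the tests were repeated with DESeq2 1.42.0, with edgeR on DESeq2's size factors, with limma-voom (limma 3.58.1), with library totals alone, without a filter, with a filter of 1 CPM in 6 libraries plus a mean of 50 counts, without the robust option, with RIN or the replicate number (or both) in the model, on unrounded counts, with only the groups compared, and without each library in turn. Leaving out HRT overload replicate 6 with LRT overload replicate 2 was added after seeing the data. The 6 genes, all named, and the comparisons were chosen with earlier results of these data known. Further gene lists and cell type markers had been set down by symbol and were not used, since the table of names covers GRCr8 and 0 of its entries carry an ID of this table. Genes most alike were the 2 with the highest mean correlation with the 6 genes.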

Additional observations from a re-analysis of the deposited data

Results flagged for a closer look

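Of 24 combinations of gene and group checked on the log2 CPM scale, 7 had 1 library set apart from the other 5, judged by the gap to its neighbour over the whole range of the group (Dixon's test at the 95% level). Chance flags about 1 in 20 groups, and the genes share libraries. LRT control replicate 3 was high in Spp1, at 13.3 CPM (gap over range 0.853). LRT control replicate 1 was low in Cd68, at 0.740 CPM (0.667). HRT overload replicate 6 was high in Apoe, at 743 CPM (0.846), and in Cd68, at 10.001 CPM (0.741). HRT control replicate 4 was high in Lgals3, at 12.3 CPM (0.747), in Gpnmb, at 6.47 CPM (0.689), and in Apoe, at 77.4 CPM (0.637). With each of these libraries left out in turn, all 6 genes still rose after overload in the line concerned.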

How the results depend on the processing

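Of 300 values for the overload response of the 6 genes under alternatives, 298 remained higher and past the threshold. The other 2 were Spp1 in LRT, at 2.17 (edgeR adjusted p = 0.0551) with the LRT groups alone and 1.69 (edgeR adjusted p = 0.0562) without LRT overload replicate 2; the cause was not tested. For the difference between responses, none of the 6 passed in any of the 36 alternatives. The number passing between the lines ran from 0 to 1 in control muscle and from 0 to 2 in overloaded muscle with single libraries left out. In control muscle this was Apoe without LRT control replicate 5 (−0.55, edgeR adjusted p = 0.043). In overloaded muscle 1 gene passed with library totals alone (Apoe, −0.63, edgeR adjusted p = 0.0232), 1 with DESeq2's Wald test (Apoe, −0.46, adjusted p = 0.0303) and 1 with HRT overload replicate 6 and LRT overload replicate 2 left out together (Lgals3, −0.55, edgeR adjusted p = 0.027). Apoe also passed without HRT overload replicate 3 (−0.50), HRT overload replicate 4 (−0.51) or LRT overload replicate 2 (−0.50), and Lgals3 without the last (−0.67).

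Signs turned for the following values, none of them past its threshold; the cause was not tested. The difference between responses of Apoe was 0.000317 with no filter, 0.0603 with RIN, 0.0665 with the block and RIN and 0.113 with both libraries left out. Cd68 in control muscle was −0.0121 with library totals. Spp1 between the lines in overloaded muscle was 0.00708 with DESeq2 size factors, 0.00713 with DESeq2's Wald test, 0.00483 with no filter, 0.0126 with the compared groups alone and 0.0471 with both libraries left out, where Cd68 was 0.00370. Cd68 there was 0.0343 with RIN and 0.0584 with the block and RIN. With single libraries left out, the difference ran from −0.13 to 0.14 for Apoe, −0.27 to 0.0549 for Cd68, −1.50 to 0.11 for Spp1, −0.80 to −0.03 for Gpnmb and −0.58 to −0.05 for Ccl2. The line comparison ran from −0.13 to 0.0866 for Gpnmb and −0.12 to 1.25 for Spp1 in control muscle, and from −0.43 to 0.47 for Spp1 and −0.19 to 0.12 for Cd68 in overloaded muscle.

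Pearson's r of Spp1 and Gpnmb stayed between 0.90 and 0.98 in LRT overload and between 0.96 and 0.98 in HRT overload. The count of pairs passing was 0 with any library left out. As 5 libraries allow few orders, Spp1 and Gpnmb could not pass by themselves however high their r. This count therefore does not bear on the strength of their relation. With library totals r in LRT overload was 0.136 for Spp1 and Apoe and 0.322 for Apoe and Cd68. Without the 2 farthest libraries it was −0.496 for Gpnmb and Apoe, −0.665 for Lgals3 and Cd68, −0.275 for Lgals3 and Ccl2 and 0.136 for Apoe and Cd68 in LRT overload, and −0.243 for Spp1 and Cd68 and −0.182 for Gpnmb and Cd68 in HRT overload. With single libraries left out, r in LRT overload ran from −0.622 to 0.750 for Apoe and Cd68, −0.430 to 0.516 for Gpnmb and Apoe, −0.0784 to 0.903 for Gpnmb and Ccl2, −0.132 to 0.771 for Lgals3 and Cd68, −0.482 to 0.188 for Spp1 and Apoe and −0.0678 to 0.817 for Spp1 and Ccl2. In HRT overload r with Cd68 ran from −0.418 to 0.737 for Spp1, −0.383 to 0.811 for Gpnmb, −0.186 to 0.980 for Apoe and −0.286 to 0.855 for Ccl2.

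Same-numbered libraries correlated from −0.127 to 0.367, and the numbers were not taken to pair them. Between LRT and HRT overload, 3 of 6 same-numbered pairs were over 0.1, against 0 or 1 of 6 in the other comparisons. Whether the 2 overload groups share an order of handling was not tested, so they may not be independent. With the replicate number as a block Spp1 was at 2.10 in LRT (edgeR adjusted p = 0.0123) and 3.04 in HRT (edgeR adjusted p = 0.00132), and all 6 genes rose in both lines. Counts over all genes for overload stayed within 1.5 times under all alternatives, from 7913 to 9634 in LRT (9524 as reported) and from 7230 to 10623 in HRT (10523 as reported). Those for the line comparisons moved more. The difference between responses had 8 genes, against 1 with DESeq2 size factors, 140 with DESeq2's Wald test, 2 with limma-voom, 5 with no filter, 2 with RIN, 1 with the block, 1 with the block and RIN, and 1 to 25 with single libraries left out. Between the lines in control muscle there were 328, against 619 with the Wald test, 206 with no filter and 154 to 495 with single libraries left out. In overloaded muscle there were 514, against 2153 with library totals, 1093 with the Wald test, 307 with no filter, 785 with RIN, 289 with the block and RIN, 115 with the groups alone and 171 to 1647 with single libraries left out. Cd68 in control muscle, at 20.02 to 35.01 counts, was the value most limited by depth.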
